A study of Homo sapiens with 18 samples.

Results

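TFAP2A, TFAP2B, TFAP2C, GATA2, GATA3, HAND1, VGLL1 and CDX2 are 8 genes for regulators of transcription that are used to recognise surface ectoderm, neural crest and trophoblast. They are described here across the neural differentiation of H9, a human embryonic stem (ES) cell line. Each gene was read from 1 probe set: among those annotated to that gene alone, and setting aside probe sets ending in _x_at where another existed, the one with the highest mean log2(signal + 16) over all arrays. They are 8 of the 19775 genes that a probe set named alone on these arrays. The other probe sets of the 7 genes that had more than 1 are given as well.

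Expression was measured on 18 Affymetrix arrays, 3 RNA pools in each of 6 groups, and all the groups are H9 cells or cells made from them. The groups are undifferentiated ES cells, embryoid bodies at day 6 (aggregates of ES cells in suspension), neuroepithelium at day 10 with basic fibroblast growth factor (bFGF) from day 6, the same without added bFGF, and neuroepithelium at day 17 with bFGF from day 6 and without. In their titles, the labels call the day 17 cells definitive neural epithelium and most of the day 10 pools primitive. They give the bFGF dose as 20 ug/ml in the day 10 groups and 20 ng/ml in the day 17 groups, and which unit applied at day 10 is not settled. All 6 groups come from a single cell line, and each array holds RNA that had been pooled, so the p-values below measure only the spread between these pools. By the labels, pools 1 and 2 of the embryoid bodies came from the same passages of H9 as ES pool 1, pool 3 of both groups shared its passages, and no passages are listed for the neuroepithelium. In such bulk RNA, fewer cells of a type and less RNA per cell cannot be told apart.

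TFAP2 proteins (AP-2 factors) bind DNA as dimers at GC-rich palindromes. TFAP2A and TFAP2B act in the epidermis, the neural plate border and the neural crest, and TFAP2C acts in the trophoblast, in germ cells and in early ectoderm. GATA2 and GATA3 are zinc finger factors of the trophoblast, and GATA3 is also made in non-neural ectoderm and amnion. HAND1 is a basic helix-loop-helix factor of the trophoblast, the amnion and the lateral mesoderm and heart. VGLL1 has no DNA-binding domain of its own and works as a cofactor of TEAD factors, and CDX2 is a homeobox factor of the trophectoderm and the hindgut. Several of these genes are known targets of bone morphogenetic protein (BMP) signalling, which in the embryo sets ectoderm towards surface fates when high and towards neural fates when low.

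All 18 arrays had been scaled to 1 level, with 2% trimmed mean signals of 150.016 to 150.026. Pool 2 of the 4 neuroepithelial groups stood apart, with a median signal of 48.7 to 50.8 against 25.2 to 32.7 on the other 14 arrays. Results of the 8 genes are therefore also given without these 4 arrays where their call changed. Other genes named below, many of them of low signal, were not refitted without these arrays. For ACTB, the 3' end signal divided by that of the 5' end, a measure of RNA quality, was 2.27 to 2.64 on the 6 arrays of pool 2 and 1.17 to 1.75 on the other 12. The labelled cell types were checked against markers. The summed signal of 8 pluripotency genes was 37084.5 to 40175 in ES cells, 27329.6 to 27730.2 in embryoid bodies and 11939 to 13304 in the day 10 groups. In the day 17 groups it was 4269 to 6799. LIN28A (8210 ± 949) and DPPA4 (2398 ± 137) held most of the untreated day 10 sum, where NANOG, PRDM14 and ZFP42 averaged 20.9, 12.4 and 36.9. The summed signal of 10 neuroepithelial genes was 1327 to 2307 in ES cells, 6349 to 9257 in embryoid bodies, 18839 to 31286 at day 10 and 20643 to 31678 at day 17.

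The first comparison asks what embryoid bodies gained or lost by day 6 relative to ES cells. TFAP2A, TFAP2B, GATA3, HAND1 and VGLL1 rose, by 1.96 to 3.82 on the log2 scale, and none of the 8 genes fell. The rise of VGLL1 rests on its kept probe set, as its other probe sets had changes of 0.01 and -0.59 and did not pass. Across all 19775 genes, 2.19% were called higher (434 genes, limma with Benjamini-Hochberg adjusted p under 0.05), against 5 of these 8. The 8 genes, and the gene lists used below, were chosen with earlier results of these data known. Such counts beside the share of all genes are therefore a description only. The median log2 change of the 8 genes was 2.13, and that of all genes was -0.00. Fold changes are on the log2(signal + 16) scale, which understates the changes of low genes.

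TFAP2A, which specifies non-neural ectoderm and crest, had signals of 720.1, 702 and 589 in the 3 pools of embryoid bodies, against 21.6, 59.1 and 24.2 in ES cells. Every embryoid body pool was far above every ES pool. The log2 change was 3.82 ± 0.40 (SE, n = 3 each; limma, adjusted p = 1.68e-05), the 12th largest change in either direction. TFAP2B, a relative that is also made in the crest, had signals of 169, 249 and 292 in embryoid bodies, against 8.03, 11.02 and 7.34 in ES cells. All ES pools were far under all embryoid body pools, and the groups did not overlap (3.32 ± 0.47, adjusted p = 0.000395).

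TFAP2C was well measured before differentiation. Its signals were 512, 656 and 568 in embryoid bodies, against 398, 444 and 464 in ES cells. The embryoid body pools were all above the ES pools, but the change of 0.39 ± 0.24 did not pass the test (limma, adjusted p = 0.571; 95% interval -0.11 to 0.89). Its second probe set had a change of -0.14 (adjusted p = 0.981).

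GATA3 had signals of 409, 661 and 464 in embryoid bodies, against 33.2, 64.9 and 60.8 in ES cells. All 3 embryoid body pools were above all 3 ES pools, and the log2 change was 2.94 ± 0.34 (limma, adjusted p = 5.38e-05). GATA2 had signals of 35.3, 57.9 and 50.1 in embryoid bodies, against 45.7, 49.98 and 60.02 in ES cells. The groups overlapped, with a change of -0.10 ± 0.38 (adjusted p = 0.985; 95% interval -0.91 to 0.70).

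HAND1 had signals of 179, 208 and 180.0 in embryoid bodies, against 31.1, 18.9 and 26.8 in ES cells, a change of 2.31 ± 0.32 (limma, adjusted p = 0.000298). VGLL1 had signals of 45.5, 64.3 and 47.1 in embryoid bodies, against 0.550, 1.56 and 2.23 in ES cells, a change of 1.96 ± 0.30 (adjusted p = 0.000748). For both genes the groups were well apart, and for VGLL1 no ES pool exceeded 2.23. CDX2 was low throughout: it had signals of 4.89, 0.819 and 2.19 in embryoid bodies, against 22.9, 12.4 and 4.87 in ES cells. The CDX2 groups overlapped, and the change of -0.62 ± 0.29 did not pass (unadjusted p = 0.0481, adjusted p = 0.377).

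**Figure D1:**
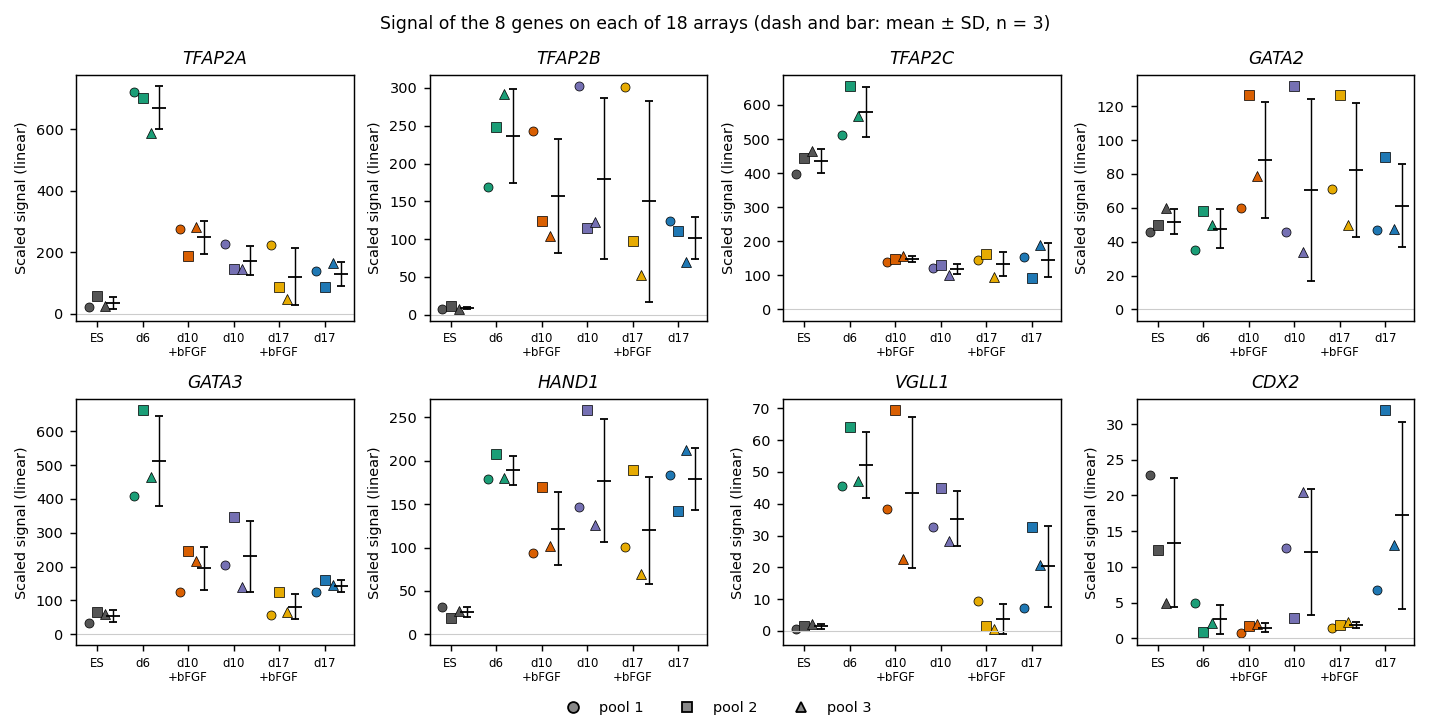
Linear scaled signal of the 8 genes on each of the 18 arrays, 1 panel per gene with its own axis; points are pools, shaped by pool number, and the dash and bar are the mean ± SD of 3 pools. TFAP2A, TFAP2B, GATA3, HAND1 and VGLL1 are low in all ES pools and high in all day 6 pools, TFAP2C is high in both, and CDX2 stays under 32 on every array.

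The pool number was also fitted as a block, since same-numbered arrays of these groups deviated together. With it, 1454 of all genes differed in either direction between embryoid bodies and ES cells, against 762 without it, and 5 of the 8 genes were called either way. TFAP2A, TFAP2B, GATA3 and HAND1 passed in all 30 alternative settings. VGLL1 passed in all but 1 of 29: when its probe sets were averaged its change was 0.46 ± 0.26 (limma, adjusted p = 0.577).

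The sequence before the start site is shown for the 5 genes that rose together by day 6, as RefSeq places the starts on GRCh38.p14. Each line holds the 250 bases upstream of the gene's start (the first listed where there were several), on the gene's own strand. Capitals mark matches to any of 5 motifs searched on both strands: the TFAP2 palindrome is GCCNNNGGC. The motif searched for GATA factors is AGATAA. The TEAD motif is GGAATG, which on the reverse strand reads CATTCC. The E-box motif, bound by helix-loop-helix factors, is CAGCTG. The TATA box motif is TATAAA, which on the reverse strand reads TTTATA. The windows are chr6:10419660-10419909 (minus strand) for TFAP2A, chr6:50818621-50818870 (plus) for TFAP2B, chr10:8045083-8045332 (plus) for GATA3, chr5:154478228-154478477 (minus) for HAND1 and chrX:136531965-136532214 (plus) for VGLL1.
TFAP2A: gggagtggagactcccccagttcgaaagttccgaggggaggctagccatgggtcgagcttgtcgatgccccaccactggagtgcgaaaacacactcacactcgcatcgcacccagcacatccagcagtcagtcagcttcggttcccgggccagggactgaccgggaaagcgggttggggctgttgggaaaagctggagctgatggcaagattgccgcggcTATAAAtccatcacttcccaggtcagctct
TFAP2B: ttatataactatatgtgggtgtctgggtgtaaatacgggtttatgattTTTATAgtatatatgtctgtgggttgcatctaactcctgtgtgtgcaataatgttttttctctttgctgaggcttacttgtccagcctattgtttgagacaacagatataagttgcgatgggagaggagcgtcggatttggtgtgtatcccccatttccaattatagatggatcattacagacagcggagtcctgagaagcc
GATA3: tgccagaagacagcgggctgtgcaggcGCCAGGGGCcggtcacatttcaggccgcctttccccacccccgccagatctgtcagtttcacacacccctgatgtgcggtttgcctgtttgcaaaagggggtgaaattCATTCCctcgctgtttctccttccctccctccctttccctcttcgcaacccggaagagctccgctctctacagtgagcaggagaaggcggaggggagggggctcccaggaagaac
HAND1: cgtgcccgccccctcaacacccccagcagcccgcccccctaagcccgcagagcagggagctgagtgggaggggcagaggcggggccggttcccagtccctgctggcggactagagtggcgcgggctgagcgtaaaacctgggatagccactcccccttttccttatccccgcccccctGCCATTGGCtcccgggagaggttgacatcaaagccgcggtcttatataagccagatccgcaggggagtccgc
VGLL1: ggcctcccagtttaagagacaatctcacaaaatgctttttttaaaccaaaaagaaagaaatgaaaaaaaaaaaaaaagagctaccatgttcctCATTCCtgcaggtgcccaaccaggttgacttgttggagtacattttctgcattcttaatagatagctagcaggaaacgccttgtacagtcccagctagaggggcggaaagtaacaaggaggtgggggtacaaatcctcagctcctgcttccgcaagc

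The GATA3 window held GCCAGGGGC 223 bases and CATTCC 115 bases upstream of the start, and the HAND1 window held GCCATTGGC 72 bases upstream. The VGLL1 window held CATTCC 157 bases upstream. TATAAA stood 30 bases upstream of TFAP2A, and its reverse 202 bases upstream of TFAP2B. None of these matches overlapped another. Such letters are common: among 35116 RefSeq windows of the same length, 19.8% held the TFAP2 motif, 9.17% the GATA motif, 11.9% the TEAD motif, 14% the E-box and 10.7% the TATA box. A match is a string of letters and not a bound site. Among the members 7 had a listed start, and GATA3 had 6 of them, of which the third and the last held no match. The second start of TFAP2A held none either. Genes that did not rise by day 6 also held matches. Each of the 2 GATA2 windows held the TFAP2 motif, and the second also held the E-box. The CDX2 window held TTATCT, the reverse of the GATA motif. GC content was 60.8% in the printed GATA3 window, 67.2% for HAND1, 59.6% for TFAP2A, 43.6% for VGLL1 and 40.8% for TFAP2B.

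The next question was how the genes differed between day 10 neuroepithelium and day 6 embryoid bodies, with bFGF and without. Both comparisons use the same day 6 pools. TFAP2A and TFAP2C fell in both, GATA3 fell with bFGF and had an adjusted p of 0.0547 without, and none of the 8 genes rose. With bFGF 3 of the 8 genes were called lower, against 2.76% of all genes, and without bFGF 2 of 8, against 2.64%. The median log2 change of the 8 genes was -0.60 with bFGF and -0.44 without, against 0.08 and 0.09 for all genes.

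TFAP2C had signals of 139.6, 147 and 157 at day 10 with bFGF and 122, 132 and 102 without, against 512, 656 and 568 at day 6. All 6 day 10 pools were well under all day 6 pools. The log2 change was -1.85 ± 0.24 with bFGF (limma, adjusted p = 8.89e-05) and -2.14 ± 0.24 without (adjusted p = 2.41e-05). Both calls held in all 30 alternative settings.

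TFAP2A had signals of 277, 188 and 282 at day 10 with bFGF and 227, 147 and 145 without, all under the day 6 pools and all above the ES pools. Without bFGF the change from day 6 was -1.88 ± 0.40 (limma, adjusted p = 0.00703), and it did not pass without pool 2 of all groups (-1.75, adjusted p = 0.0720) or with probe sets averaged (-0.84, adjusted p = 0.115). With bFGF the change was -1.39 ± 0.40 with an adjusted p of 0.0436. That call was lost in 16 of 30 alternative settings, among them leaving out any of 11 of the 18 arrays singly (-1.49 to -1.21, adjusted p 0.0501 to 0.162). The 11 were ES pool 1, all 3 day 6 pools, all 3 bFGF day 10 pools, untreated day 10 pool 3, untreated day 17 pools 1 and 3, and bFGF day 17 pool 2. It was also lost without the 4 arrays of raised low signal (-1.21, adjusted p = 0.153).

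GATA3 had signals of 124, 246 and 217 at day 10 with bFGF and 204, 346 and 140 without, against 409, 661 and 464 at day 6. Every day 10 pool was under every day 6 pool. Pool 2, whose arrays had the raised ACTB ratio of 2.27 to 2.64, was the highest of the 3 for GATA3 in all 6 groups. Why it was highest was not tested. Without pool 2 of all groups, the change of untreated day 10 from day 6 was -1.29 (limma, adjusted p = 0.0455). In that setting the call with bFGF was kept. With bFGF the change was -1.34 ± 0.34 (limma, adjusted p = 0.0236), and it did not pass without day 6 pool 2 (-1.14, adjusted p = 0.112), day 6 pool 3 (-1.39, adjusted p = 0.0597) or bFGF day 10 pool 1 (-1.07, adjusted p = 0.115). Without bFGF the change was -1.16 ± 0.34 with an adjusted p of 0.0547, and it passed in 11 of 30 alternative settings, including without untreated day 10 pool 2 (-1.48, adjusted p = 0.0189), without bFGF day 10 pool 1 (adjusted p = 0.0467) without bFGF day 17 pool 2 (adjusted p = 0.0395) and with probe sets averaged (-1.26, adjusted p = 0.000738). Between the day 10 groups, bFGF minus none was -0.18 ± 0.34 (95% interval -0.90 to 0.54). Without the 4 arrays of raised low signal, the GATA3 change of untreated day 10 against day 6 was -1.48 (limma, adjusted p = 0.0101).

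TFAP2B had no called change at day 10. Its signals were 244, 124 and 104 with bFGF and 303, 115 and 122 without, a range that overlapped the day 6 pools of 169 to 292. The log2 change was -0.60 ± 0.47 with bFGF (limma, adjusted p = 0.563; 95% interval -1.60 to 0.40) and -0.46 ± 0.47 without (adjusted p = 0.663; 95% interval -1.46 to 0.54). In each of the 4 neuroepithelial groups pool 1 was the highest of the 3 for TFAP2B, by a wide margin in 3 of them.

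HAND1 had signals of 93.5, 170.1 and 102 at day 10 with bFGF and 147, 258 and 126 without. All 3 bFGF pools were under the day 6 pools, but the change of -0.61 ± 0.32 did not pass (limma, adjusted p = 0.322); without the 4 arrays of raised low signal it was -0.85 ± 0.22 (adjusted p = 0.0359). Untreated day 10 pools spanned the day 6 pools, with a change of -0.15 ± 0.32 (adjusted p = 0.853). VGLL1 had signals of 38.4, 69.4 and 22.6 with bFGF and 32.6, 45.0 and 28.4 without, and neither change passed (-0.27, adjusted p = 0.704, with bFGF; -0.41, adjusted p = 0.511, without). The untreated pools of VGLL1 all lay under the day 6 pools, by a narrow margin, and the bFGF pools spanned them. Every day 10 pool was above every ES pool for HAND1 and for VGLL1.

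GATA2 had signals of 59.98, 126 and 78.8 at day 10 with bFGF and 45.4, 132 and 34.0 without. The bFGF pools were all just above the day 6 pools of 35.3 to 57.9, and the untreated ones spanned them. The high value in each group was pool 2, which was also highest in both day 17 groups. The change from day 6 was 0.68 ± 0.38 with bFGF (limma, adjusted p = 0.371) and 0.29 ± 0.38 without (adjusted p = 0.747). CDX2 had signals of 0.741, 1.76 and 1.99 with bFGF and 12.7, 2.88 and 20.6 without, and neither change from day 6 passed (-0.09, adjusted p = 0.915; 0.54, adjusted p = 0.344).

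**Figure D2:**
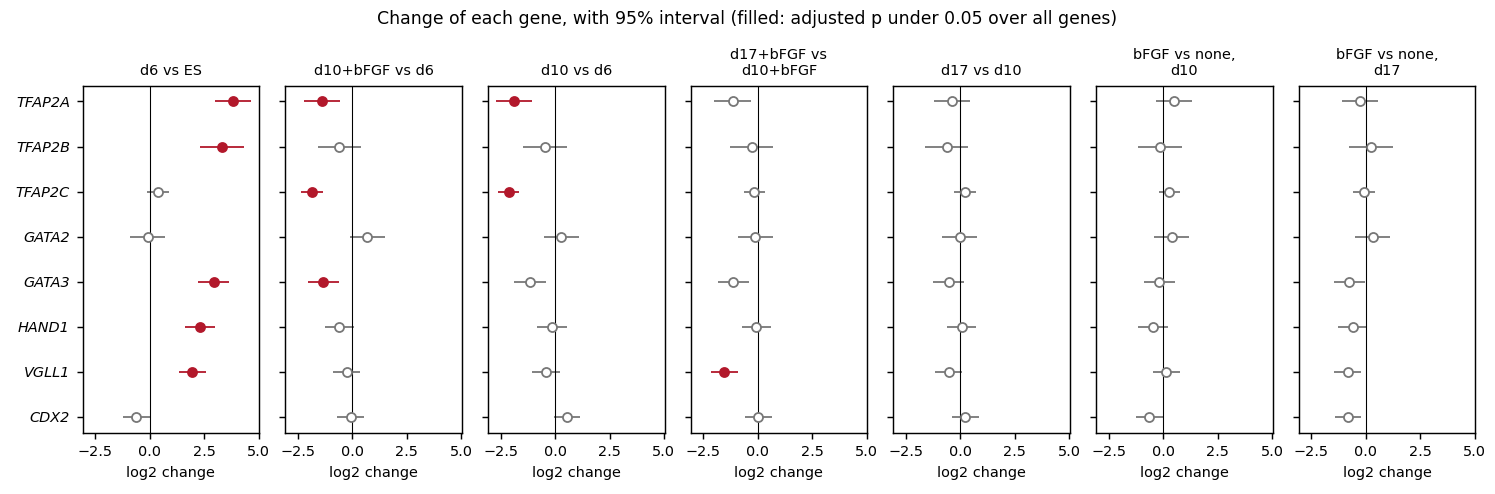
Log2 change of each gene in 7 comparisons (x axis, log2(signal + 16) scale), the group named first minus the group named after it; points are limma estimates, bars 95% intervals, and filled points passed at an adjusted p under 0.05 over all 19775 genes. Filled points are 5 of 8 at day 6 against ES cells, 3 of 8 at day 10 with bFGF and 2 of 8 without, and VGLL1 alone at day 17 against day 10 under bFGF.

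From day 10 to day 17 the question was whether the remaining signal of these genes changed further. Under bFGF, VGLL1 fell: 1 of the 8 genes was called lower, against 0.389% of all genes. VGLL1 had signals of 9.27, 1.44 and 0.540 at day 17 with bFGF, against 38.4, 69.4 and 22.6 at day 10 with bFGF. Each day 17 pool was under each day 10 pool, and pools 2 and 3 were as dim as the ES pools. The log2 change was -1.54 ± 0.30 (limma, adjusted p = 0.0156). The call was lost without bFGF day 10 pool 1 (-1.57, adjusted p = 0.0578), bFGF day 10 pool 2 (-1.24, adjusted p = 0.0843), bFGF day 17 pool 2 (-1.46, adjusted p = 0.0654) or bFGF day 17 pool 3 (-1.43, adjusted p = 0.0879), and without the 4 arrays of raised low signal (-1.16, adjusted p = 0.134).

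GATA3 had signals of 56.7, 124 and 65.0 at day 17 with bFGF, against 124, 246 and 217 at day 10 with bFGF. The lowest day 10 pool lay just above the highest day 17 pool, and the change was -1.12 ± 0.34 (limma, adjusted p = 0.195). With the pool number as a block GATA3 passed (adjusted p = 0.0150), as it did with the 4 arrays of raised low signal as a term (adjusted p = 0.0371), and in both 2 of the 8 genes were called lower. With the block the count over all genes was 446 in either direction, against 208 without the block. TFAP2A had signals of 225, 88.5 and 48.0 at day 17 with bFGF, against 277, 188 and 282 at day 10 with bFGF. Pool 1 lay between the day 10 pools, and the change was -1.15 ± 0.40 (adjusted p = 0.310); without bFGF day 17 pool 1 it was -1.67 (adjusted p = 0.0393).

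Without bFGF none of the 8 genes was called between day 17 and day 10 by limma, and none had an unadjusted p under 0.05; 1.99% of all genes were called in either direction. With the pool number as a block, 754 of all genes were called, against 393 without it, and again none of the 8. The untreated day 17 signals were 139, 86.6 and 164 for TFAP2A, 126, 161 and 144 for GATA3, and 184, 142 and 213 for HAND1. All of these were above every ES pool of the same gene. With bFGF the lowest day 17 pool was under the highest ES pool for TFAP2A (48.0 against 59.1) and GATA3 (56.7 against 64.9). For HAND1 it was above it (69.5 against 31.1). Untreated VGLL1 signals at day 17 were 7.34, 32.7 and 20.8, against 32.6, 45.0 and 28.4 at day 10 (-0.55 ± 0.30, limma, adjusted p = 0.624).

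No change of TFAP2C passed over the same days. Its day 17 signals were 145, 162 and 95.3 with bFGF and 153, 91.5 and 189 without, against day 10 signals of 102 to 157 in both groups together. The changes were -0.15 ± 0.24 with bFGF (limma, adjusted p = 1.000; 95% interval -0.65 to 0.34) and 0.21 ± 0.24 without (adjusted p = 0.919; 95% interval -0.29 to 0.71). TFAP2B at day 17 had signals of 302, 97.5 and 51.9 with bFGF and 124, 111 and 70.0 without. GATA2 had 70.9, 127 and 49.8 with bFGF and 46.7, 89.7 and 47.6 without, and for neither gene did day 17 differ from day 10 by the test.

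The addition of bFGF was then compared with none on the same day. At day 10 none of the 8 genes was called by limma, 1 had an unadjusted p under 0.05 (CDX2), and 0.086% of all genes were called. At day 17 none of the 8 was called, 3 had an unadjusted p under 0.05 (GATA3, VGLL1 and CDX2), and 0.339% of all genes were called. With the pool number as a block, 34 genes were called at day 10, against 17 without it, and 120 at day 17, against 67, and in both none of the 8. The median log2 change of the 8 genes was 0.01 at day 10 and -0.44 at day 17, and that of all genes was -0.02 and -0.01.

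At day 17 GATA3 had signals of 56.7, 124 and 65.0 with bFGF, against 126, 161 and 144 without. The groups did not overlap, though the highest bFGF pool came close to the lowest untreated one, and the change was -0.76 ± 0.34 (limma, adjusted p = 0.963). VGLL1 had signals of 9.27, 1.44 and 0.540 with bFGF, against 7.34, 32.7 and 20.8 without; pool 1 of the bFGF group was above pool 1 of the untreated group (-0.84 ± 0.30, adjusted p = 0.648). CDX2 had signals of 1.46, 1.78 and 2.25 with bFGF, against 6.78, 31.9 and 13.0 without. The CDX2 groups did not overlap at day 17 or at day 10, with changes of -0.83 ± 0.29 (adjusted p = 0.614) and -0.63 ± 0.29 (adjusted p = 1.000), but every one of these values was under the median of its array.

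Of the other genes, the largest bFGF effect at day 10 was in TFAP2A (0.49 ± 0.40; 95% interval -0.35 to 1.33), and at day 17 HAND1 was lower by a change of -0.61 ± 0.32 (95% interval -1.28 to 0.06). The effect at day 17 minus that at day 10 was also tested. By limma 0 of all 19775 genes passed, which is 0%, and 631 had an unadjusted p under 0.05. Among the 8 genes VGLL1 had the lowest unadjusted p, at 0.0322, with a difference of -0.99 ± 0.42 (adjusted p = 1.000). With the pool number as a block, 1 gene passed, and none of the 8.

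Across all 6 groups the order of the group means differed between the genes. Embryoid bodies had the highest mean for TFAP2A, TFAP2B, TFAP2C, GATA3, HAND1 and VGLL1, and ES cells had the lowest for all of these but TFAP2C. The day 6 pools stood apart from those of the next group for TFAP2A, TFAP2C and GATA3, and overlapped them for TFAP2B, HAND1 and VGLL1. For TFAP2A the means then ran 249 ± 53.0 at day 10 with bFGF, 173 ± 47.1 at day 10 without, 129.9 ± 39.5 at day 17 without and 120.3 ± 92.5 at day 17 with bFGF (SD, n = 3 each), each overlapping its neighbour. For HAND1 they ran 189 ± 16.4 at day 6, 179 ± 35.8 at untreated day 17, 177 ± 71.1 at untreated day 10, 122 ± 42.0 at bFGF day 10 and 119.8 ± 61.8 at bFGF day 17, each overlapping its neighbour, with ES cells apart at 25.6 ± 6.21. GATA2 and CDX2 showed no group apart from its neighbour.

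The 8 genes are covered by 20 probe sets in all. For GATA3 both other probe sets also passed at day 6 against ES cells, with changes of 2.46 and 1.69 (limma over 41097 probe sets, adjusted p = 2.49e-05 and 0.0283), and 1 of them passed at untreated day 10 against day 6 (-1.61, adjusted p = 0.00104), where the kept one had an adjusted p of 0.0658 on this scale. For TFAP2B the other non-_x_at probe set passed at day 6 (2.13, adjusted p = 0.00190). Its _x_at probe set did not (0.25, limma, adjusted p = 0.960) and was under the array median on all 18 arrays. For TFAP2C the other probe set passed at day 10 against day 6, with bFGF (-1.31, adjusted p = 0.0482) and without (-1.38, adjusted p = 0.0404). For TFAP2A the others had changes of 1.57 (adjusted p = 0.212) and 0.41 (adjusted p = 0.741) at day 6, and did not pass.

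The probe sets of VGLL1 and GATA2 disagreed. The other VGLL1 probe sets were under the array median on 16 and on 18 of the 18 arrays and had changes of 0.01 and -0.59 at day 6 (limma, adjusted p = 1.000 and 0.647). The second GATA2 probe set had signals of 85.4, 76.2 and 62.2 in embryoid bodies, against 25.8, 23.5 and 43.3 in ES cells. Its groups did not overlap, unlike those of the kept GATA2 probe set, but the change of 0.97 ± 0.45 did not pass (adjusted p = 0.435). The _x_at probe set of GATA2 passed at untreated day 10 against day 6 (-1.11, adjusted p = 0.0182), where the kept one had a positive change. Both CDX2 probe sets were under the array median on all 18 arrays. Of the antisense genes, the 2 probe sets of GATA3-AS1 had changes of 0.00 and 0.12 at day 6 (limma, adjusted p = 1.000 and 0.959), and those of TFAP2A-AS1 did not pass either (-0.21 and 0.56, adjusted p = 0.986 and 0.584).

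**Figure D3:**
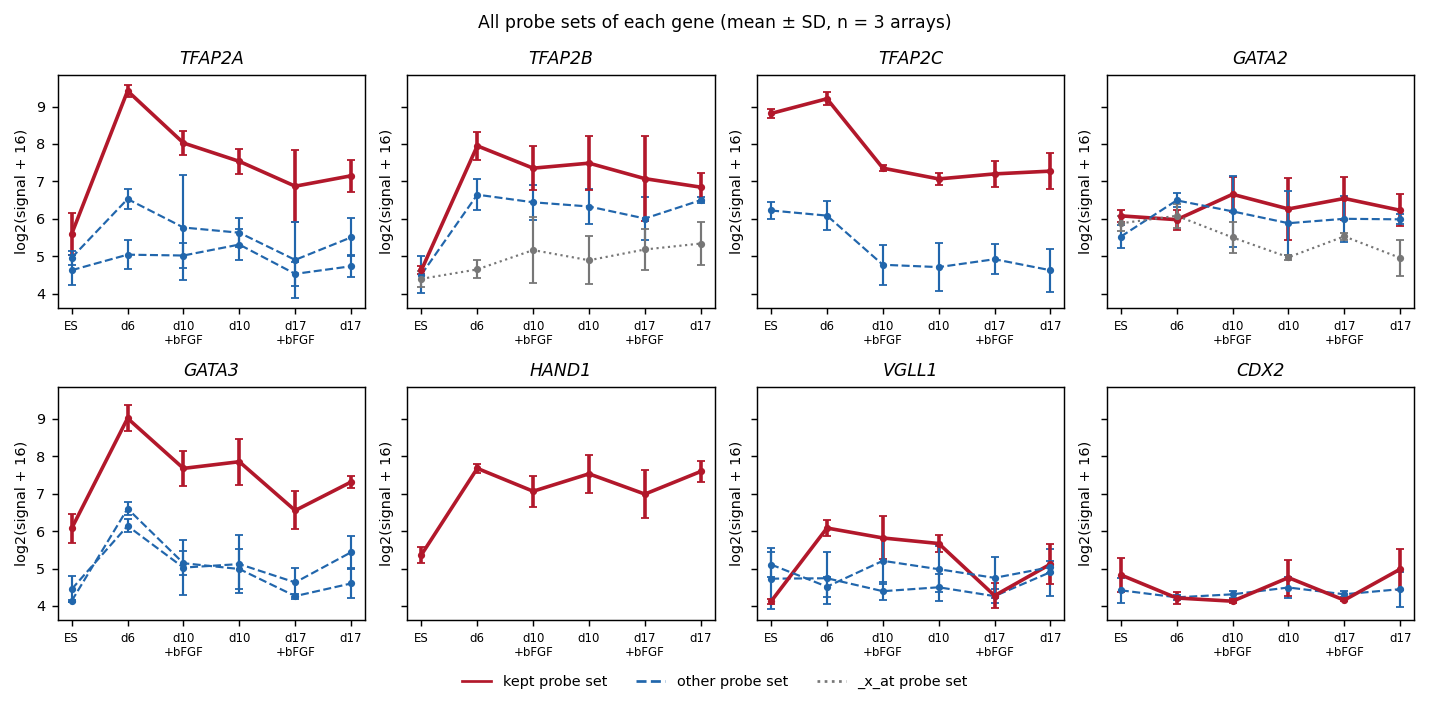
Mean ± SD of log2(signal + 16) over 3 arrays per group (y axis) for every probe set of the 8 genes, with groups on the x axis; the line in red is the probe set kept, dashed lines are the others, dotted lines are _x_at probe sets, and lines only join the points of 1 probe set. The 3 GATA3 probe sets share the peak at day 6, while the other VGLL1 probe sets do not show it.

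The wider families of these genes were read from a list of 12 relatives, among them TFAP2D, GATA4, GATA6, HAND2 and CDX1. None of the 12 passed in any of the 8 comparisons by limma, and 0 to 2 had an unadjusted p under 0.05 in each; at day 6 against ES cells their median log2 change was 0.03. A list of 17 cofactors and partners held 1 gene that rose by day 6. This was KCTD15, a protein that restrains AP-2 activity and neural crest formation in zebrafish, at 537 ± 52.8 in embryoid bodies, against 326 ± 58.9 in ES cells (0.70 ± 0.19, limma, adjusted p = 0.0481). ZFPM2, a cofactor of GATA factors also called FOG2, was the 1 that rose at day 10, at 44.8 ± 20.4 with bFGF and 41.7 ± 5.47 without, against 10.1 ± 9.14 at day 6 (limma, 1.23 ± 0.29 with bFGF, adjusted p = 0.0132, and an adjusted p of 0.0164 without). None of TEAD1 to TEAD4, the partners of VGLL1, passed in any comparison.

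Lists of cell type genes show what else moved with the 8 genes by day 6. Of 9 measured amnion genes 6 rose and none fell, with a median log2 change of 1.18. They included GABRP, a GABA receptor subunit made in amnion (185 ± 67.0 in embryoid bodies, against 8.11 ± 7.61 in ES cells; 3.06 ± 0.44, limma, adjusted p = 0.000442), ISL1, a LIM homeobox factor (2.56 ± 0.38, adjusted p = 0.000610), and IGFBP3 (2.33 ± 0.27, adjusted p = 5.74e-05). The summed signal of these 9 genes was 1993 to 2399 in embryoid bodies, against 532 to 768 in ES cells. IGFBP3 (930 ± 77.3 in embryoid bodies, 174 ± 38.3 in ES cells) and IGFBP5 (320 ± 45.7 and 146 ± 63.0) weighed heavily in these sums. At day 10 the sum was higher still, at 4932 to 5888 with bFGF and 4496 to 5430 without. The part of amnion cells in the result was not tested.

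Of 19 measured trophoblast genes 3 rose and none fell by day 6, with a median of 0.29. They were EPAS1, a hypoxia-inducible factor (1099.8 ± 183 in embryoid bodies, against 34.0 ± 7.15 in ES cells; 4.48 ± 0.35, limma, adjusted p = 9.94e-07), the mucin MUC15 (2.24 ± 0.26, adjusted p = 5.03e-05) and ID2 (1.44 ± 0.26, adjusted p = 0.00277). The summed signal of the list was 4260.1 to 4855 in embryoid bodies, against 1574 to 2174 in ES cells. Most of that difference lay in ID2, also on the BMP list, at 2548 ± 397 in embryoid bodies, against 937 ± 199 in ES cells, and in EPAS1. Among genes that define trophoblast types, the highest of 3 embryoid body pools was 19.3 for CGA, 5.35 for HSD3B1, 3.07 for GCM1 and 19.4 for ELF5, all under the array medians. CYP19A1, the aromatase gene, reached 30.9 in 1 pool and averaged 21.8 ± 9.32 in embryoid bodies, against 10.6 ± 11.9 in ES cells. The keratin KRT7 averaged 55.8 ± 12.2 in embryoid bodies, against 51.0 ± 40.1 in ES cells. The part of trophoblast in the result was not tested.

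Of 14 measured surface ectoderm genes 3 rose and none fell, with a median of 0.09: DLX5 (3.15 ± 0.44, limma, adjusted p = 0.000334), the tight junction gene CLDN4 (1.71 ± 0.35, adjusted p = 0.00825) and GRHL3, a factor of epidermal closure (1.62 ± 0.28, adjusted p = 0.00208). Keratins of basal epidermis were low, at most 14.2 for KRT5 and 6.59 for KRT14 in any embryoid body pool. Of 15 neural plate border and crest genes 7 rose and 2 fell, with a median of 1.28. SNAI2, a repressor of epithelial genes (2.25 ± 0.37, adjusted p = 0.00158), SOX9 (1.78 ± 0.33, adjusted p = 0.00410) and MSX2 (1.77 ± 0.24, adjusted p = 0.000231) changed most among those that rose. The 2 that fell were ETS1 (-1.55 ± 0.39, limma, adjusted p = 0.0370) and FOXD3 (-1.15 ± 0.27, adjusted p = 0.0223), named after their values were seen. FOXD3 was at 38.4 ± 7.02 in embryoid bodies, against 104.7 ± 18.8 in ES cells. Of 17 measured BMP pathway genes 5 rose and none fell, with a median of 0.63; they included the antagonist FST (1.53 ± 0.28, adjusted p = 0.00365) and SMAD9 (1.29 ± 0.31, adjusted p = 0.0263). Summed signals in embryoid bodies and ES cells were 14624 to 15716 and 15047 to 17829 for surface ectoderm, and 1355 to 1429 and 839.5 to 1281 for crest. CDH1 (3867 ± 507 in embryoid bodies, 4015 ± 902 in ES cells) and EPCAM (3630 ± 442 and 5360 ± 647) weighed heavily in the surface ectoderm sums. The 3 surface ectoderm genes that rose had far lower signals in both groups. The part of surface ectoderm and crest cells in the result was not tested.

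HAND1 is also a gene of mesoderm and heart. Of 13 measured genes of that kind none rose by day 6 and 2 fell: MYL7, an atrial myosin light chain (-1.48 ± 0.30, limma, adjusted p = 0.00785), and the VEGF receptor KDR (-1.25 ± 0.30, adjusted p = 0.0270). Of 8 measured endoderm genes none was called. The summed signal of the mesoderm list was 565 to 639 in embryoid bodies, against 588 to 737 in ES cells. At day 10 MYL7 rose, at 48.9 ± 19.2 with bFGF and 95.2 ± 10.4 without, against 10.1 ± 9.11 at day 6 (1.33 and 2.15, limma, adjusted p = 0.0105 and 0.000233), and the part of such cells in the HAND1 values was not tested.

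**Figure D4:**
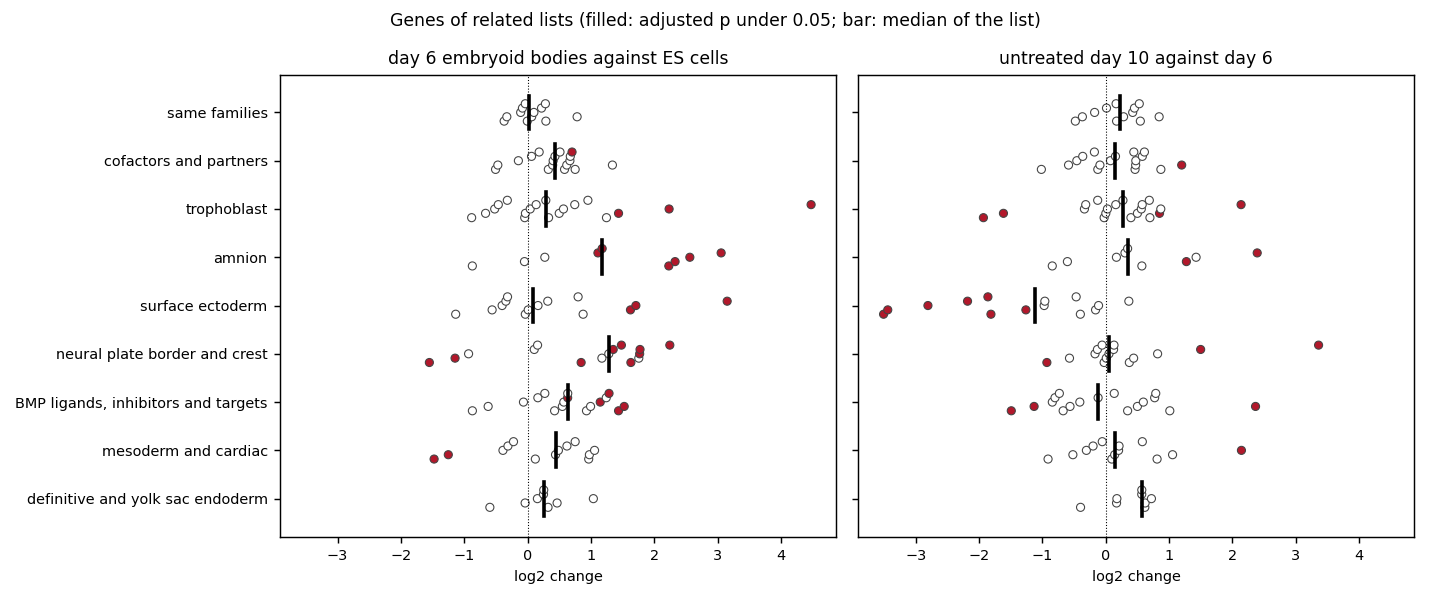
Log2 change (x axis, log2(signal + 16) scale) of each gene of 9 lists, day 6 embryoid bodies minus ES cells on the left and untreated day 10 minus day 6 on the right; each point is a gene, filled where it passed at an adjusted p under 0.05, and the bar is the list's median. At day 6 the amnion and crest lists have medians above 1, and at day 10 the surface ectoderm list lies lowest, at -1.12.

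At day 10, relative to day 6, the surface ectoderm list held the most calls among the lists of non-neural ectoderm, amnion and trophoblast. Of the 14 surface ectoderm genes 6 fell with bFGF and 7 without, and none rose. Among them were the splicing factor ESRP1 (-3.64 with bFGF and -3.51 without), the epithelial cadherin CDH1 (-3.33 and -3.44) and EPCAM (-2.97 and -2.81), all with limma adjusted p of 4.67e-06 or lower. These 3 genes had not risen by day 6 (-0.34, -0.04 and -0.56 against ES cells, adjusted p = 0.667, 0.997 and 0.149), and CDH1 was at 3867 ± 507 in embryoid bodies, against 4015 ± 902 in ES cells. Of 8 measured pluripotency genes 6 fell at the same step in each day 10 group, with medians of -1.97 with bFGF and -2.51 without. The part of such cells in the result was not tested. In the trophoblast list 2 genes fell with bFGF and none rose, and 2 fell and 2 rose without. EPAS1 fell to 291 ± 118 with bFGF and 353 ± 89.5 without, against 1099.8 ± 183 at day 6 (-1.94 and -1.61, adjusted p = 0.00213 and 0.00960), and MUC15 fell by 2.10 and 1.93 on the log2 scale (adjusted p = 6.32e-05 and 0.000153). Without bFGF HSD3B1 rose, at 71.2 ± 38.2 at day 10, against 2.76 ± 2.28 at day 6 (2.14 ± 0.29, adjusted p = 0.000158). So did CCR7, a chemokine receptor named after its values were seen (0.85 ± 0.25, adjusted p = 0.0493). In the amnion list IGFBP5 (2.46 and 2.39) and IGFBP3 (1.54 and 1.28) rose in both day 10 groups, and ISL1 fell with bFGF (-1.87 ± 0.38, adjusted p = 0.00494).

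Between bFGF and no bFGF, a few genes of these lists were called although none of the 8 was. At day 17 GABRP was at 3.35 ± 1.94 with bFGF, against 145 ± 82.0 without (-2.89 ± 0.44, limma, adjusted p = 0.00656), and CDH1 was at 59.99 ± 11.9, against 218 ± 77.3 (-1.57 ± 0.31, adjusted p = 0.0399). PAX7, a factor of dorsal neural tube and crest, was at 149 ± 56.1 with bFGF, against 31.5 ± 8.32 without (1.77 ± 0.30, adjusted p = 0.0135). At day 10 HSD3B1, a steroid enzyme of trophoblast, was at 6.36 ± 3.79 with bFGF, against 71.2 ± 38.2 without (-1.89 ± 0.29, adjusted p = 0.0199). GABRP also fell between day 10 and day 17 under bFGF (-2.77 ± 0.44, adjusted p = 0.00397), as did EPAS1 (-1.59 ± 0.35, adjusted p = 0.0394). Over the same days without bFGF, 2 of the 19 trophoblast genes fell and none rose. CGA was at 6.33 ± 6.98 at day 17, against 43.4 ± 4.03 at day 10 (-1.45 ± 0.26, limma, adjusted p = 0.00722). HSD3B1 was at 5.78 ± 5.33, against 71.2 ± 38.2 (-1.94 ± 0.29, adjusted p = 0.00133).

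Genes with profiles most like those of the called members were found by the root mean square difference of log2 values centred on each gene's mean, over the 18 arrays. The nearest to TFAP2A were GATA3 (0.685), TFAP2B (0.693) and IRX1 (0.696), against a spread of 1.24 of TFAP2A around its own mean. The nearest to GATA3 were ERP27 (0.364), VGLL1 (0.522) and VTCN1 (0.525), against its own spread of 1.01. ERP27 had a mean signal of 251 ± 68.6 in embryoid bodies, against 25.7 ± 10.6 in ES cells. The nearest to TFAP2B were PAX2 (0.609), EPHA4 (0.634) and MAPK10 (0.634), and to TFAP2C they were PPP1R3B (0.346), PRODH (0.346) and SALL3 (0.359). For HAND1 they were OLFM3 (0.398), HS6ST2 (0.407) and ZNF664 (0.463), and for VGLL1 they were FILIP1 (0.417), HAS2 (0.434) and IRX3 (0.436). These distances rest on arrays that share groups and pools and are given as a description.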

How the data were processed

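The arrays measured labelled RNA from 18 pools of H9 cells. The values are linear signal intensities per probe set that the authors deposited in 1 table, already scaled, as their near-equal trimmed means show. The scanning and summary software was not given in the sources used here. No other normalization was added. Of the probe sets, 41097 were annotated to 1 gene, 1801 to several and 11777 to none.

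Values were taken as log2(signal + 16) and fitted with limma 3.58.1 in R 4.3.3, with 1 mean per group over all 18 arrays. P-values were adjusted by Benjamini-Hochberg over 19775 genes, in 8 comparisons, at a threshold of 0.05. The number of arrays limits the precision. The members and lists were chosen with earlier results of these data known. The text names the 8 genes, up to 3 called genes of each list per comparison by size of change, and the 3 genes with the nearest profile to each called member. The antisense genes were added after their values were seen.

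Pool numbers come from the labels' titles, except that ES pool 1 carries none and was numbered by order, so that its place in the block is not from a label. The description of bFGF day 10 pool 2 numbers it 1. Deviations from the group means correlated at 0.0749 to 0.668 over 21 same-numbered pairs, 18 of them over 0.1. Every pair exceeded 0.1 except in the comparisons of day 10 with day 6. Alternatives were other pseudocounts, a filter on low signals, quantile scaling, the mean of probe sets, other variance priors, the pool number as a block and left-out arrays.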

Additional observations from a re-analysis of the deposited data

How the results depend on the processing

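Over the 64 gene-level changes, 1858 of 1904 alternative values kept the side of the threshold, 31 lost a call, 15 gained one and none reversed a called direction. The sign differed in 62 values that passed in neither setting. TFAP2A, TFAP2B, GATA3 and HAND1 at day 6 against ES cells kept their calls in every alternative run, as did TFAP2C at day 10 against day 6 with bFGF and without. The log2 changes at day 6 ranged from 1.93 to 4.36 for TFAP2A, 2.03 to 4.58 for TFAP2B, 2.28 to 3.27 for GATA3, 1.498 to 2.86 for HAND1 and 0.46 to 4.49 for VGLL1.

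At day 10 with bFGF against day 6, the count of 3 genes was 1 with a pseudocount of 1, and 1 to 3 when 1 array was left out. It was 1 without day 6 pool 2, day 6 pool 3 or bFGF day 10 pool 1. At day 17 against day 10 under bFGF, the count of 1 was 0 in the upper 60% of genes, which leaves VGLL1 and CDX2 out, and 0 with the mean of probe sets, with only the compared groups, without the 4 arrays of raised low signal and without pool 2 of all groups. It was 2 with those 4 arrays as a term and 2 with the replicate block, and 0 to 2 when 1 array was left out; the cause was not tested.

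With the replicate block, the count of the 8 genes was 5 at day 6 against ES cells, 3 at day 10 with bFGF and 3 without (against 2 in the unblocked fit, GATA3 being gained at an adjusted p of 0.00324 by limma), and 0 for untreated day 17 against day 10 and for each bFGF effect. Over all genes the block gave 2824 calls with bFGF at day 10 against 1394 without the block, and 2512 calls at untreated day 10 against 1259. Beside this and GATA3 at day 17 under bFGF, it changed no call of the 8 genes. Signals near the low end of the arrays limit VGLL1 and CDX2: VGLL1 was under the array median on 12 of 18 arrays.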

Other observations

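Genes of yolk sac and endoderm were called at day 17, when few of the 8 genes were. Of 8 measured genes of that list 3 rose in untreated day 17 cells relative to untreated day 10 cells and none fell, with a median log2 change of 0.44 (limma, adjusted over 19775 genes). They were TTR, the transport protein transthyretin, at 389 ± 245 at day 17, against 22.7 ± 15.1 at day 10 (SD, n = 3 each; 3.27 ± 0.59, adjusted p = 0.00649), alpha-fetoprotein AFP (3.14 ± 0.38, adjusted p = 0.000235) and the apolipoprotein APOA2 (2.49 ± 0.47, adjusted p = 0.00952). With bFGF at day 17, AFP was at 127 ± 13.7, against 830.0 ± 169 without (-2.55 ± 0.38, adjusted p = 0.00574). The summed signal of the list was 1029 to 1574 at day 17 with bFGF, against 1816 to 3302 without, and the part of such cells in the values of the 8 genes was not tested.

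Of 17 measured BMP pathway genes 3 rose and 3 fell at day 10 with bFGF relative to day 6, and 1 rose and 2 fell without. The receptor BMPR1B rose at day 10, to 180.4 ± 15.4 with bFGF and 213 ± 15.7 without, against 28.5 ± 6.33 at day 6 (2.15 and 2.37, limma, adjusted p = 1.25e-05 and 5.68e-06). The antagonist FST fell in both, by 1.55 and 1.49 on the log2 scale (adjusted p = 0.00202 and 0.00311). ID1, a direct target of BMP signalling, also fell in both, by 1.40 with bFGF and 1.13 without (adjusted p = 0.00466 and 0.0228). The antagonist GREM1 rose at day 10 with bFGF, at 1235 ± 132, against 207 ± 22.6 at day 6 (2.49 ± 0.32, adjusted p = 0.000113). The ligand BMP7 rose with bFGF (0.96 ± 0.24, adjusted p = 0.0195) and the inhibitory SMAD6 fell (-0.60 ± 0.17, adjusted p = 0.0381); ID1 with bFGF, BMP7 and SMAD6 were named after their values were seen.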
